A study of Citrus maxima with 12 samples.

Results

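A set of 177 genes had more transcript in diseased than in control fruit of the pomelo cultivar Jinsha, while the same comparison in the cultivar Jinlan moved them little. They were taken from 32863 gene identifiers and were chosen by their group means in FPKM, a transcript level scaled for transcript length and for the fragments mapped in each library. A gene was included when its log2 ratio of diseased to control fruit, computed after adding 1 FPKM, was at least 1 in Jinsha and between -0.5 and 0.5 in Jinlan, and when its diseased Jinsha mean was at least 3 FPKM. The choice thus used the disease change in both cultivars, so the size of these changes describes the genes and is not a test of them. The members all passed the filter for testing, at least 1 FPKM in at least 3 libraries, which 17120 genes passed. For 6 members every library outside diseased Jinsha fruit was below 1 FPKM. These passed only through the group that the rule required to be high, so their calls describe the choice.

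RNA sequencing was done on fruit of pomelo (Citrus maxima) affected by yellow spot disease and on control fruit. The 4 groups were control Jinsha, diseased Jinsha, control Jinlan and diseased Jinlan fruit, with 3 libraries each, and no other treatment, age or genotype is labelled. It is not labelled whether replicates are separate fruits, and the p-values cover the spread of these libraries alone, which may be technical. Sequencing depth is unknown because only FPKM was deposited. Library sums of FPKM ranged from 550055 to 575107.

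Plants respond to infection by switching on defence genes, and cultivars of one species can differ in which genes are induced and in how much of a defence transcript is present before any infection. A gene that responds in only 1 cultivar may be at its resting level, or already at its induced level, in the other. The level in the cultivar without a response is therefore described here beside the response itself. The identifiers are not paired with gene names in the sources used here, so functions are not stated. No member is therefore known to be a defence gene, and markers of fruit tissues or cell types could not be checked. In bulk tissue, fewer cells of a type and less RNA per cell cannot be told apart.

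The rise in Jinsha was moderate for most members and very large for a few. The log2 change ran from 1.005 to 6.339 with a median of 1.35, against a median of -0.02 over all genes tested. It lay between 1 and 1.5 for 107 members, between 1.5 and 2 for 33, between 2 and 3 for 26 and at 3 or more for 11. All 177 were called higher by limma at an adjusted p below 0.05, a call made for 27.3% of the genes tested. The rule nearly fixed this outcome, although it uses group means and no measure of spread. The 3 diseased libraries stood above the 3 control libraries for 176 members (30.6% of the genes tested).

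**Figure D1:**
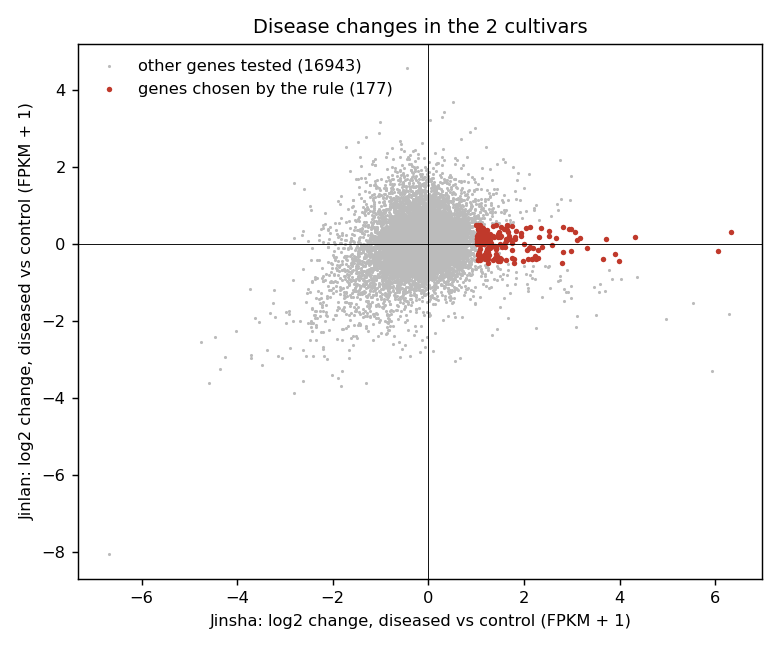
Each point is a gene, placed by its log2 change from control to diseased fruit in Jinsha (horizontal axis) and in Jinlan (vertical axis), both on group means of FPKM + 1; red points are the 177 chosen genes and grey points the other genes tested. The red points form a horizontal band from 1.005 to 6.339 in Jinsha and from -0.49 to 0.5 in Jinlan, which is how they were chosen.

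Cg1g003320 and Cg1g001610 had the largest Jinsha changes. Cg1g003320 stood at 0.26, 0.15 and 0.423 FPKM in Jinsha control replicates 1 to 3 and at 111, 93.8 and 102 FPKM in the diseased replicates. In Jinlan it stood at 2.9, 4.15 and 3.16 FPKM in control fruit and at 2.92, 5.18 and 5.39 FPKM in diseased fruit. The diseased Jinsha libraries thus stood far above the other 9, and the Jinlan libraries, whose groups overlapped, all stood above the Jinsha control libraries.

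Cg1g001610 was near 0 in 9 libraries and abundant in 3. It was at 0.0724, 0.0565 and 0.2 FPKM in control Jinsha fruit and at 64.4, 89.6 and 65.6 FPKM in diseased Jinsha fruit. In Jinlan it was at 0.574, 0.53 and 0.502 FPKM in control and at 0.265, 0.328 and 0.466 FPKM in diseased fruit. Its log2 change was 6.06 in Jinsha and -0.18 in Jinlan. The sizes for both genes depend on the value added before the logarithm: the fitted Jinsha change was 8.15 for Cg1g003320 and 8.49 for Cg1g001610 with 0.1 FPKM, and 4.34 and 3.92 with 5 FPKM.

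Most members were expressed in control Jinsha fruit before any change. The control mean was below 1 FPKM for 15 members, from 1 to 5 FPKM for 50, from 5 to 20 FPKM for 59, from 20 to 100 FPKM for 41 and at least 100 FPKM for 12. The median ratio of diseased to control FPKM was 14.5 in the lowest of these classes, then 3.8, 2.64 and 2.24, and 2.19 in the highest. Because the rule adds 1 FPKM, a gene of low control level needed a larger ratio to be included, so this order was set in part by the rule. There were 12 members below 1 FPKM in every control Jinsha library, 5 of which reached at least 5 FPKM in every diseased one, and 6 of the 12 were also below 1 FPKM in every Jinlan library.

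The 2 members of highest diseased Jinsha level were abundant in Jinlan as well, and their Jinsha changes differed in size. Mean FPKM rose 2.02-fold for Cg8g006910 and 4.96-fold for Cg3g017900. Cg8g006910 had the highest diseased level, at 2566, 2302 and 2590 FPKM in diseased Jinsha libraries against 1283, 1199 and 1214 FPKM in control ones. In Jinlan it was at 1756, 2044 and 1994 FPKM in control and 2047, 1936 and 2305 FPKM in diseased fruit. Its log2 change of 1.01 in Jinsha lay close to the inclusion limit, and the Jinlan levels, control and diseased alike, fell between the 2 Jinsha groups apart from diseased replicate 3, which just passed the lowest diseased Jinsha library.

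Cg3g017900 came next, with 223.9, 232 and 238 FPKM in control and 1060, 1267 and 1108 FPKM in diseased Jinsha fruit. In Jinlan its values were 903, 899 and 864 FPKM in control and 780.0, 781 and 852 FPKM in diseased fruit. No Jinlan library reached the diseased Jinsha libraries, and all lay far above control Jinsha. The 5 members of highest level made up 35.1% of the summed diseased Jinsha FPKM of the set.

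Summed over the members, their share of all FPKM was 1.03 ± 0.027% in control and 2.98 ± 0.047% in diseased Jinsha fruit (SD, n = 3). In Jinlan the share was 1.71 ± 0.016% in control and 1.81 ± 0.067% in diseased fruit (SD, n = 3). All 6 Jinlan libraries, from 1.7% to 1.89%, thus lay between the Jinsha groups. The rise in Jinsha and the small change in Jinlan follow from the choice of genes. The rule did not strictly require the Jinlan share to lie between the Jinsha groups, but choosing genes by their Jinsha rise favours it. For all 365 genes that met the Jinsha conditions of the rule, the shares were 2.21% in control and 6.62% in diseased Jinsha fruit. In Jinlan they were 3.4% in control and 3.33% in diseased fruit. The place of the Jinlan share is thus a description with no test.

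**Figure D2:**
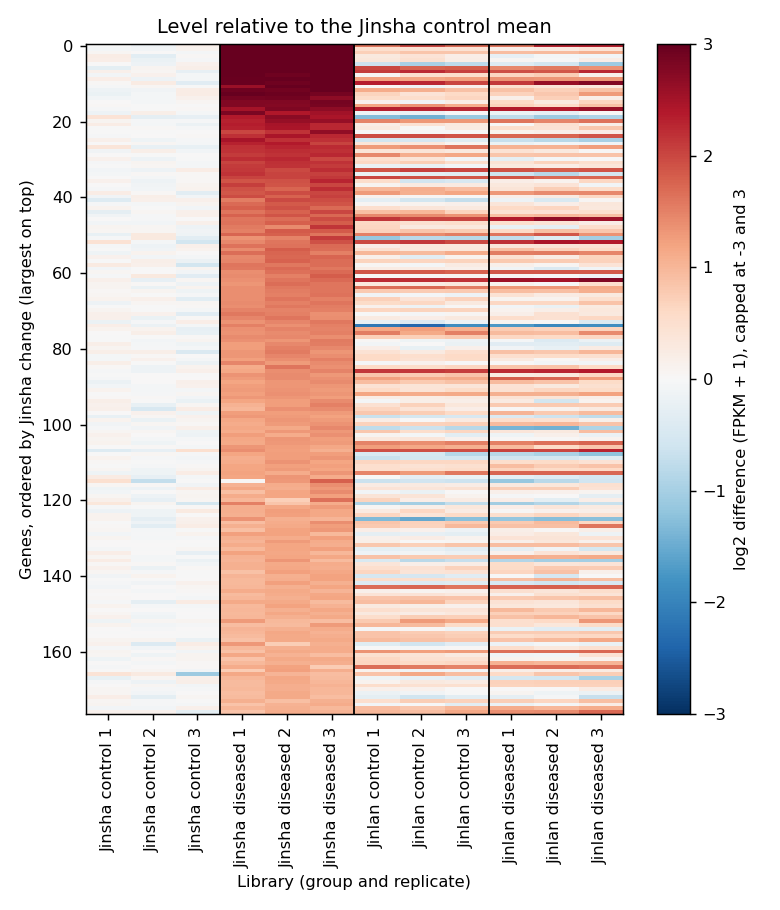
Rows are the 177 genes, ordered by Jinsha change with the largest on top, columns are the 12 libraries, and colour is the log2 difference (FPKM + 1) from the Jinsha control mean of the same gene, capped at -3 and 3. The 3 diseased Jinsha columns are red nearly throughout, while the 6 Jinlan columns mix pale, red and blue rows that keep their colour from control to diseased fruit.

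The 3 diseased Jinsha libraries gave similar values. The ratio of the highest to the lowest diseased library had a median of 1.17 over the members and reached 3.56. Diseased replicate 1 was the lowest of the 3 for 112 members and the highest for 22. Its median deviation from the group mean was -0.08 on the log2 scale over the members and -0.03 over all genes tested, so it was also slightly low across the table. Without this library the median fitted Jinsha change of the members was 1.39, beside 1.35 with it. The part of the shift across the table in these values was not tested. Among members with a mean of at least 3 FPKM in the group concerned, the median coefficient of variation was 8.36% in control Jinsha (131 members), 7.91% in diseased Jinsha (177), 6.22% in control Jinlan (140) and 8.62% in diseased Jinlan fruit (141). For all tested genes with such a mean it was 5.96%, 6%, 5.99% and 5.7%.

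In 2 members, named here after their values were seen, the diseased Jinsha libraries differed by more than 2-fold. CgUng015120 was at 19.2, 7.69 and 13.2 FPKM in control and 13.6, 34.3 and 48.4 FPKM in diseased Jinsha fruit. It was the 1 member whose control and diseased Jinsha libraries overlapped, and its Jinsha change fell from 1.12 to 0.75 in the fit without diseased replicate 3, to 0.8 without control replicate 2 and to 0.99 without diseased replicate 2. Cg1g015270 was at 1.28, 0.711 and 1.12 FPKM in control and 3.07, 2.37 and 5.41 FPKM in diseased fruit, with no overlap.

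To see how far the pattern holds in libraries that did not choose the genes, the rule was applied to 2 replicates of each group and the third was then read. Without replicate 1 the rule gave 194 genes, of which 68% had a log2 change of at least 1 between the left-out Jinsha libraries, against 2.21% of all genes tested. Without replicate 2 the share was 86.9% of 183 genes, against 2.88%, and without replicate 3 it was 85.7% of 161 genes, against 2.74%. The left-out Jinsha change was above 0 for 193 of 194, 179 of 183 and 159 of 161 genes, with medians of 1.2, 1.39 and 1.38. For these lists the rise in Jinsha was also seen in the left-out libraries, with the smallest median in replicate 1. No library lay outside the choice of the 177 members themselves. The lists read here shared 162, 158 and 149 genes with the 177 members. The replicates may be technical, so the left-out libraries may not be independent of those that chose the genes.

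The small change in Jinlan carried over less sharply. Between the left-out Jinlan libraries the log2 change lay within 0.5 of 0 for 79.4%, 80.9% and 88.8% of the genes so chosen, in the order of replicates 1 to 3. The shares over all genes tested were 69.1%, 68.2% and 77.3%. The median left-out Jinlan changes of 0.02, 0.08 and 0.06 lay close to 0, but most tested genes also changed little, so a small Jinlan change sets these genes apart far less than the Jinsha rise does.

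**Figure D3:**
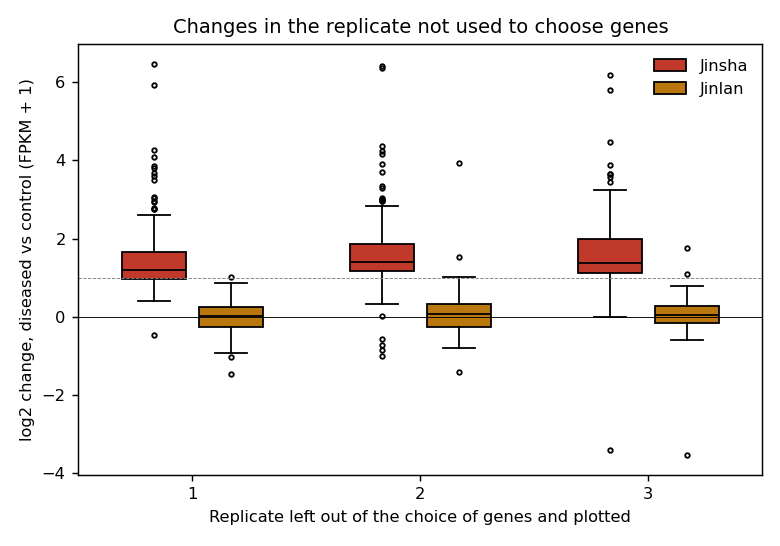
Boxes show the log2 change from control to diseased fruit (FPKM + 1) in the replicate that was not used to choose the genes, in red for Jinsha and in brown for Jinlan; lines in the boxes are medians, boxes span the quartiles, whiskers reach to 1.5 times the box height and circles are genes beyond them. The Jinsha medians of 1.2, 1.39 and 1.38 lie above the dashed line at 1, and the Jinlan medians lie near 0.

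Within the narrow band set by the rule, some members still moved in Jinlan. The log2 change there lay between -0.5 and -0.25 for 37 members, between -0.25 and 0 for 37, between 0 and 0.25 for 62 and between 0.25 and 0.5 for 41. For disease in Jinlan, limma called 37 members higher and 32 lower, against 31.4% and 30.3% of all genes tested. Nothing is read from these counts, since the rule bounded the change. The remaining 108 members were not called, which does not show that they stayed constant. The difference between the Jinsha and Jinlan changes was likewise called for all 177 members and for 27.2% of the genes tested in that direction, as the rule nearly requires.

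Among called members with separate Jinsha groups, Cg3g021340 and Cg8g020670 rose most in Jinlan. Cg3g021340 went from 28.6, 27.3 and 30.7 FPKM in control to 41.3, 42.6 and 39.7 FPKM in diseased Jinlan fruit, and from 12.5, 14.9 and 13.7 to 46.1, 48.1 and 41.1 FPKM in Jinsha. Its groups did not overlap in either cultivar, and the diseased levels of the cultivars did. Cg8g020670 went from 60.0, 69.1 and 66.5 to 91.1, 92.6 and 91.8 FPKM in Jinlan, and from 54.0, 49.8 and 63.6 to 109, 124 and 112 FPKM in Jinsha. Both genes lay just inside the upper limit, with log2 changes of 0.5 and 0.49 in Jinlan beside 1.65 and 1.03 in Jinsha.

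Cg2g037150 and Cg7g010390 fell most in Jinlan among these. Cg2g037150 went from 53.6, 59.7 and 50.7 to 37.9, 34.7 and 43.1 FPKM in Jinlan while it rose from 23.6, 22.6 and 22.7 to 164.5, 161 and 171 FPKM in Jinsha. Control fruit of Jinlan thus had more of this transcript than control fruit of Jinsha, and diseased fruit had less. Cg7g010390 went from 6.47, 7.09 and 6.11 to 3.79, 3.66 and 5.73 FPKM in Jinlan and from 11.3, 10.7 and 12.9 to 27.3, 26.9 and 33.2 FPKM in Jinsha. Every Jinlan library lay below every Jinsha library for this gene. The log2 changes in Jinlan were -0.49 for both.

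Values at the limits were close to each other on both sides. The member with the smallest Jinsha change had 1.005, and the nearest gene left out had 0.998. At the upper Jinlan limit the values were 0.4998 inside and 0.511 outside, at the lower one -0.49 inside and -0.53 outside. For the diseased Jinsha level they were 3.1 FPKM inside and 2.64 FPKM outside. The edge of the set is therefore not a gap in the data.

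The cultivars were then compared in control fruit, to place the Jinlan level. With limma 113 members were higher in Jinlan control than in Jinsha control fruit (adjusted p below 0.05), 20 were lower and 44 were not called. Over all genes tested the shares were 21.2% higher and 36.8% lower on FPKM as deposited. Most members thus differed in the direction that was rarer on that scale. The median difference, Jinlan minus Jinsha on the log2 scale, was 0.43 for the members and -0.09 for all genes tested. The lean of all genes tested depended on how libraries were scaled. Their median was 0.0064 under median-ratio scaling and -0.0014 when quantiles were normalized. The median of the members was 0.5 under each of these scalings. At least 2-fold, 39 members were higher (2.02% of genes tested) and 3 lower (2.96%).

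This comparison shares the control libraries with the rule, and a gene with chance low values in control Jinsha fruit was more likely to be included. In the left-out libraries, which did not enter the choice, 74.7% of the 194 genes chosen without replicate 1 were higher in Jinlan control than in Jinsha control fruit, against 41.5% of all genes tested. The shares were 71.6% against 41.4% for replicate 2 and 75.2% against 40.2% for replicate 3. All these shares use FPKM as deposited, where all genes tested leaned towards lower values in Jinlan. The medians of 0.41, 0.45 and 0.37 were close to the 0.43 of the whole set. The replicates may be technical, and a low value shared by all libraries of a group would recur in the left-out library. The part of such values in this comparison was not tested.

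Cg5g037720 and Cg9g025060 had the largest excess in Jinlan control fruit among members with separate groups. Genes named for their cultivar difference were picked as extremes in libraries that the rule also used, so their differences are descriptions with no test. Cg5g037720 was at 433, 414 and 410 FPKM in control Jinlan and at 82.8, 84.7 and 86.9 FPKM in control Jinsha fruit. Its diseased levels were 447, 448 and 514 FPKM in Jinlan and 482, 596 and 547 FPKM in Jinsha. Control Jinlan fruit thus lay below diseased fruit of both cultivars, and far closer to diseased than to control Jinsha fruit. The log2 difference in control fruit was 2.29 (SE 0.078).

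Cg9g025060 showed a similar order at a lower level. It was at 3.33, 4.08 and 2.36 FPKM in control and 32.3, 30.9 and 41.1 FPKM in diseased Jinsha fruit, and at 20.9, 19.5 and 16.0 FPKM in control and 17.6, 24.9 and 28.2 FPKM in diseased Jinlan fruit. The Jinlan libraries all lay between the 2 Jinsha groups, and the Jinlan groups overlapped. The difference in control fruit was 2.23 (SE 0.18).

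NewGene_2087 and Cg9g007120 had the largest deficit in Jinlan relative to Jinsha control fruit among called members with separate groups and at least 5 FPKM in diseased Jinsha fruit. NewGene_2087 was at 6.55, 4.83 and 5.28 FPKM in control Jinsha and at 0.477, 0.27 and 0.807 FPKM in control Jinlan fruit. Diseased fruit had 17.5, 16.0 and 17.7 FPKM in Jinsha and 0.981, 0.717 and 0.799 FPKM in Jinlan. No Jinlan library reached 1 FPKM. The difference in control fruit was -2.12 (SE 0.13), and it was -3.28 with 0.1 FPKM and -0.93 with 5 FPKM added before the logarithm.

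Cg9g007120 was at 2.4, 1.59 and 2.43 FPKM in control and 7.02, 5.59 and 5.39 FPKM in diseased Jinsha fruit. In Jinlan it stood at 0.247, 0.0872 and 0.309 FPKM in control and 0.412, 0.303 and 0.325 FPKM in diseased fruit. All Jinlan libraries were again below 1 FPKM. A rise of Jinlan FPKM by the Jinsha ratio would have left this gene within the Jinlan limit of the rule, which held for 2 of the 177 members, the other being Cg4g008430, listed at 0 in all Jinlan control libraries and named here after its values were seen. The difference in control fruit was -1.36 (SE 0.13), with -2.89 and -0.45 for added values of 0.1 and 5 FPKM.

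**Figure D4:**
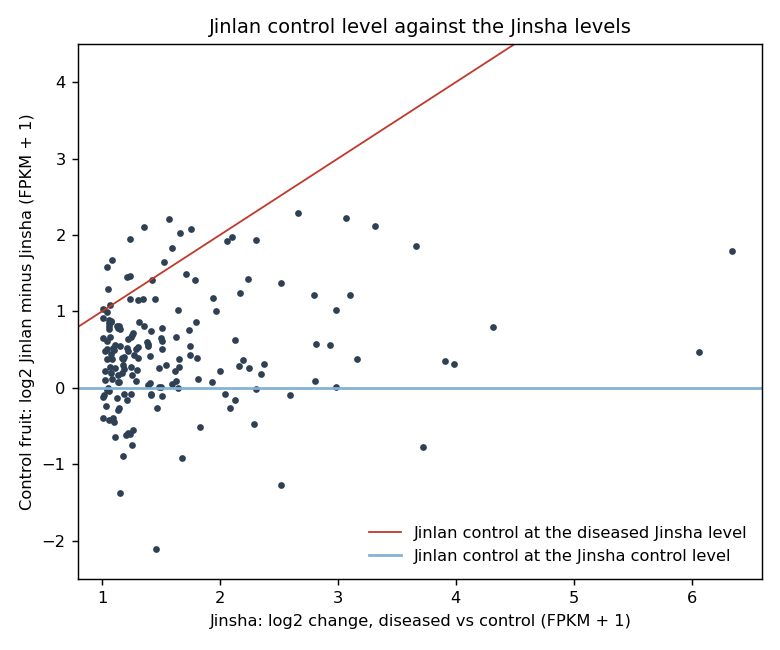
Each point is 1 of the 177 genes, placed by its log2 change in Jinsha (horizontal axis) and by the log2 difference between Jinlan and Jinsha in control fruit (vertical axis), both on group means of FPKM + 1. Points on the blue line have the Jinsha control level in control Jinlan fruit and points on the red line have the diseased Jinsha level; the median point lies at 0.297 of the way from blue to red.

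In diseased fruit 151 members were lower and 12 higher in Jinlan than in Jinsha, and 14 were not called, against 38.7% lower and 28.6% higher over all genes tested. The median difference was -0.96 for the members and -0.07 for all genes tested. The rule bears on this comparison through the high diseased Jinsha level. In the left-out libraries 7.22%, 8.2% and 8.7% of the chosen genes were higher in diseased Jinlan fruit, against 46.9%, 42.6% and 43.3% of all genes tested.

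Cg1g001610, already described, and Cg6g019590 showed the largest deficits in diseased Jinlan fruit. Cg6g019590 was at 14.5, 13.0 and 15.8 FPKM in control and 186, 209 and 212 FPKM in diseased Jinsha fruit. In Jinlan it was at 9.03, 6.92 and 7.97 FPKM in control and 10.9, 9.54 and 6.29 FPKM in diseased fruit. All Jinlan libraries lay below the lowest Jinsha control library. The log2 differences in diseased fruit were -5.76 (SE 0.12) for Cg1g001610 and -4.39 (SE 0.15) for Cg6g019590.

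Cg3g012510 and Cg3g005530 were the reverse, higher in Jinlan even after the rise in Jinsha. Cg3g012510 went from 7.73, 5.54 and 7.13 to 19.2, 22.9 and 24.5 FPKM in Jinsha and stood at 36.0, 35.2 and 34.0 FPKM in control and 44.6, 42.7 and 52.4 FPKM in diseased Jinlan fruit. Cg3g005530 went from 3.89, 3.53 and 4.61 to 10.3, 12.2 and 13.0 FPKM in Jinsha and stood at 20.8, 20.8 and 20.01 FPKM in control and 22.7, 23.4 and 25.2 FPKM in diseased Jinlan fruit. For both genes every Jinlan library, control ones included, lay above every diseased Jinsha library. The differences in diseased fruit were 1.04 (SE 0.11) and 0.96 (SE 0.09).

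**Figure D5:**
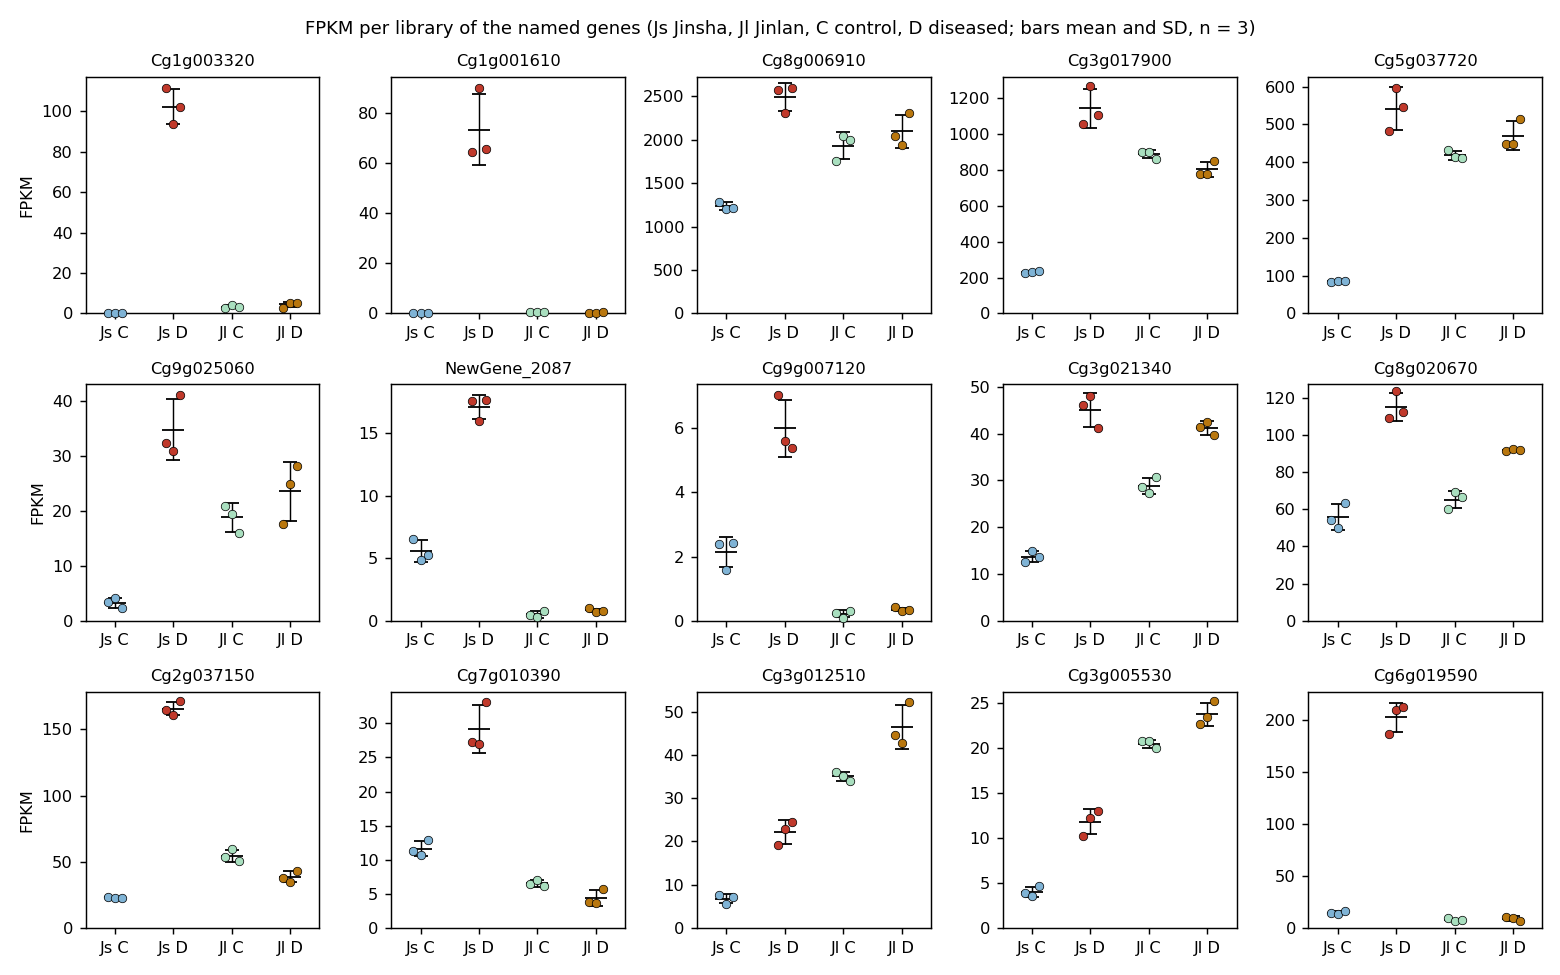
Each panel shows 1 named gene; points are the FPKM of single libraries, horizontal bars the group means and whiskers the SD (n = 3), with Js for Jinsha, Jl for Jinlan, C for control and D for diseased fruit, and every vertical axis starts at 0. The diseased Jinsha points stand above the control Jinsha points in all 15 panels, while the Jinlan points lie near the bottom (Cg1g001610, NewGene_2087), between the Jinsha groups (Cg9g025060) or above both (Cg3g005530).

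Taking the cultivar calls in control and in diseased fruit together, the members fell into 5 arrangements. The largest had 87 members that were higher in Jinlan than in Jinsha in control fruit and lower in diseased fruit, an arrangement of 5.9% of the genes tested. Another 44 were not called in control fruit and were lower in diseased Jinlan fruit (15.5% of the genes tested). In 20 members Jinlan was lower in both (17.2%), in 12 it was higher in both (9.47%), and in 14 it was higher in control fruit and not called in diseased fruit (5.78%). The rule bears on both calls, since it required a rise in Jinsha and a small change in Jinlan, so these counts are descriptions.

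The place of control Jinlan fruit was also expressed as its distance from control Jinsha divided by the distance from control to diseased Jinsha, both as log2 differences. Over the 177 members this position had a median of 0.297 and quartiles of 0.03 and 0.606. It ranged from -1.44 to 1.58. It lay within 0.25 of the control Jinsha level for 67 members, between 0.25 and 0.75 for 61, within 0.25 of the diseased Jinsha level for 27, further above for 5 and further below control for 17. Both distances use values of the rule, so the position is a description with no test. The median control Jinsha level was 9.6 FPKM in the arrangement of 87 members. It was 11.7 FPKM where Jinlan was higher in control and not called in diseased fruit and 11.3 FPKM where it was higher in both. It was 6.99 FPKM where Jinlan was not called in control fruit and 6.46 FPKM where it was lower in both.

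The same calls in control fruit were counted in other genes that rose in Jinsha. Of all 365 genes that met the Jinsha conditions of the rule, whatever they did in Jinlan, 58.6% were called higher in Jinlan control fruit and 14.5% lower, beside 21.2% and 36.8% of all genes tested. For the 177 members the shares were 63.8% and 11.3%. All shares given here use FPKM as deposited, on which the lean of all genes tested depended. Among the 47 genes of that list whose log2 change was also at least 1 in Jinlan, 23.4% were higher and 34% lower, with more genes lower than higher. Among the 36 genes whose Jinlan change was -1 or lower, 75% were higher and 11.1% lower. These lists differ by the Jinlan change, which uses the same Jinlan control libraries, and the difference between them was not tested.

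The levels of these 2 smaller lists, which cover only some of the other genes that rose in Jinsha, were set beside those of the members. The median control Jinsha level was 9.48 FPKM for the members, 7.33 FPKM for the genes rising in both cultivars and 5.45 FPKM for those with opposite changes. The median diseased Jinsha levels were 33.1, 20.3 and 55.9 FPKM in the same order. The median Jinsha changes were 1.35, 1.37 and 2.46 on the log2 scale, with the highest median for the genes of opposite changes, and these differences were not tested.

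The members were spread over all identifier series of the table. The prefixes Cg1g to Cg9g each held between 12 and 34 members, or between 0.786 (Cg5g) and 1.38 (Cg9g) members per 100 genes tested. CgUng held 1 member and NewGene 2, at 0.22 and 0.189 per 100 genes tested. Of the 174 members with prefixes Cg1g to Cg9g, 16 stood next to another member in the order of identifier numbers, in 8 pairs and no longer run. Among the 225 tested neighbours that were not members, 3.56% had a Jinsha log2 change of at least 1, against 2.32% of all genes tested. The latter share includes the members, which all had such a change, so the shares are not on a like basis. Whether neighbouring identifiers are near-identical copies that share reads was not tested, and members of 1 pair could differ in the Jinlan level: Cg2g037150, described above, is 1 of them and its neighbour Cg2g037140 had a control difference between the cultivars of 0.51 beside 1.21.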

How the data were processed

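Messenger RNA of pomelo fruit was sequenced from 12 libraries. The authors deposited FPKM values per gene and library; for the aligner, annotation and counting tool no source used here gives a name. Per the labels' protocols, column-purified RNA went into a SMARTER library kit. Groups came from the labelled cultivar and treatment. No identifier was matched to a name, so gene lists by function were not tested.

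The members, comparisons and alternatives were chosen with earlier results of these data known. After a log2(FPKM + 1) transformation, the 17120 genes that reached 1 FPKM in 3 or more libraries entered a linear model with 4 group means in limma 3.58.1 (R 4.3.3, mean-variance trend), with Benjamini-Hochberg adjustment over all of them for each of 5 comparisons. The fit was tested on simulated data. limma averages log values, the rule takes the log of averages.

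Named genes had separate Jinsha groups and at least 5 FPKM in diseased Jinsha fruit. They were the 2 with the largest Jinsha change, the 2 of highest level, and, per direction, the 2 most extreme called genes in control fruit, in diseased fruit (both without overlap between cultivars) and in Jinlan disease. No 2 libraries had more than 0.00479% of nonzero values in common. Alternatives were other pseudocounts, filters, scalings, rule limits, fits to the compared groups, a replicate block and leaving out libraries.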

Additional observations from a re-analysis of the deposited data

Results flagged for a closer look

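The disease change differed between the cultivars by the interaction test for all 177 members (limma, adjusted p below 0.05), lower in Jinlan each time, against 27.2% of the genes tested. The rule selected a difference between the changes, so this count describes the selection. The log2 interaction, Jinlan change minus Jinsha change, was -6.23 for Cg1g001610, -6.04 for Cg1g003320, -3.60 for Cg6g019590, -3.29 for Cg2g037150, -2.79 for Cg9g025060, -2.49 for Cg5g037720 and -2.45 for Cg3g017900. It was -1.76 for Cg7g010390, -1.19 for NewGene_2087, -1.18 for Cg3g012510, -1.15 for Cg3g005530 and for Cg3g021340, -1.01 for Cg9g007120, -0.89 for Cg8g006910 and -0.54 for Cg8g020670. After quantile normalization the interaction of Cg8g006910 was -0.28 and was not called, and with 0.1 FPKM added that of Cg9g007120 was -0.89 and was not called.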

How the results depend on the processing

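The number of members followed the limits of the rule: 99 and 282 with Jinlan bands of 0.25 and 1, and 288 and 70 with Jinsha limits of 0.8 and 1.5. It was 184 and 124 with 0.1 and 5 FPKM added, 176 after median-ratio scaling, 194 after quantile normalization, and 161 to 194 without single libraries or replicate numbers. With 5 FPKM added, 59.9% of the members were still included. Counts of members called kept within 1.5 times under every alternative run: 103 to 121 higher and 14 to 20 lower in Jinlan control fruit, and 100 to 114 and 15 to 22 without single libraries. CgUng015120 lost its Jinsha call without control replicate 2 or diseased replicate 2 or 3. Same-numbered libraries had correlations of -0.17 to 0.0398 between their deviations from group means, and differently numbered ones had up to 0.178. Pairing by number was thus not seen, but such correlations cannot show that same-numbered libraries share no source. With the replicate block 108 members were higher and 20 lower in Jinlan control fruit. Unknown depth limits values below 1 FPKM, where a 0 can be a failed estimate.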
